A study of Homo sapiens with 18 samples.

Results

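Integrin and laminin genes were followed in the human embryonic stem cell line H1, before and after it formed embryoid bodies. The members were genes whose array symbol is ITGA or ITGB (integrin alpha or beta subunit) followed by a number, or LAMA, LAMB or LAMC (laminin alpha, beta or gamma chain) followed by a number. Of other integrin symbols ITGAV, ITGAE, ITGAL, ITGAM, ITGAX and ITGA2B were taken. Only probe sets that carry exactly 1 symbol were read, which left out ITGA1, whose probe set also carries PELO. This gave 34 of the 18417 genes on the array, namely 16 integrin alpha subunits, 8 integrin beta subunits and 10 laminin chains. Tests were limited to genes that exceeded their array's 40th percentile on 3 or more of the 18 arrays. They numbered 14209, and 25 were members (13 alpha subunits, 4 beta subunits and 8 laminin chains). Of the 25, 15 lay above that percentile on all 16 arrays of the fit described next, and 10 did so in some groups only, so the filter favours members that were high somewhere. The 9 members that were not tested were ITGA10, ITGAL, ITGAX, ITGB2, ITGB3, ITGB6, ITGB7, LAMB3 and LAMB4.

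The 18 arrays fall into 6 groups of 3, by state and by treatment of the H1 line. Pluripotent cells were kept on Matrigel without feeder cells, in mTeSR1. Embryoid bodies, which are aggregates in which pluripotent cells differentiate, were formed in AggreWell800 plates and held in APEL medium for 6 days. In each state cells were untransduced, or carried a lentivirus with a control shRNA, or a lentivirus with an shRNA against KBTBD8, a substrate adaptor of a ubiquitin ligase known for its part in neural crest specification. All groups therefore come from 1 cell line. State goes together with contact to Matrigel and with medium, and these cannot be told apart. Below, "on differentiation" stands for embryoid bodies against pluripotent cells. Nothing in the labels ties the replicate arrays to cultures of their own, and the p-values measure only a spread between arrays that may be technical.

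The KBTBD8 shRNA arrays numbered 2 stood apart in both states and were read apart. Over the 25 tested members the array labelled pluripotent, KBTBD8 shRNA, number 2 differed by a mean of 0.51 (log2) from the other arrays of its group and by 0.18 from the embryoid bodies with that shRNA. The array labelled embryoid body, KBTBD8 shRNA, number 2 differed by 0.47 from its own group and by 0.13 from the pluripotent arrays with that shRNA. The fit therefore used 16 arrays, with 2 in each KBTBD8 shRNA group, and calls that rest on those groups were also made with all 18 arrays under their labels. KBTBD8 itself fell by 1.79 (adjusted p = 0.000282) with its shRNA in pluripotent cells. Its mean there was 6.84 with the control shRNA and 5.04 with its own. In embryoid bodies its mean was 4.755 with the control shRNA and 4.76 with its own (adjusted p = 0.998). On every embryoid body array of the fit KBTBD8 lay under the percentile of the filter, in untransduced cells too (mean 4.557). At such low levels this comparison cannot decide whether the shRNA lowered KBTBD8 in embryoid bodies.

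Integrins are pairs of an alpha and a beta subunit that span the membrane, bind the matrix outside and connect through adaptors such as talin and kindlin to actin inside. Laminins are trimers of an alpha, a beta and a gamma chain and the main adhesive proteins of basement membranes and of Matrigel. Pluripotent human cells are known to hold on to laminin through ITGA6 paired with ITGB1. Neural crest cells, which leave the neural tube and migrate, are known to use other subunits, among them ITGA4 and ITGA5.

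Levels are log2 intensities of 1 probe set, so they are compared between groups and not between genes. A difference is a log2 difference with its standard error, and "rose" or "fell" stands for an adjusted p under 0.05 in limma over all 14209 genes. In untransduced cells 17 of the 25 members differed between embryoid bodies and pluripotent cells, 5 higher and 12 lower, beside 52.2% of all genes tested (25.8% higher and 26.3% lower). With the control shRNA 17 members differed, 8 higher and 9 lower, beside 48.3% of all genes (23.1% higher and 25.2% lower). In cells with the KBTBD8 shRNA 11 members differed, 3 higher and 8 lower, beside 38.5% of all genes (17.3% higher and 21.1% lower). The members' median difference was -0.21, -0.11 and -0.09 in these 3 comparisons, while that of all genes tested was -0.04, -0.02 and 0.002. With all 18 arrays under their labels the counts became 12, 12 and 0 members, so that every call given below for differentiation with the KBTBD8 shRNA holds on the 16 arrays only. For the KBTBD8 shRNA limma gave on 18 arrays 1 member higher and 0 lower at an unadjusted p under 0.05. The share of all genes that passed on 18 arrays was not counted, so the 18-array counts stand without it.

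**Figure D1:**
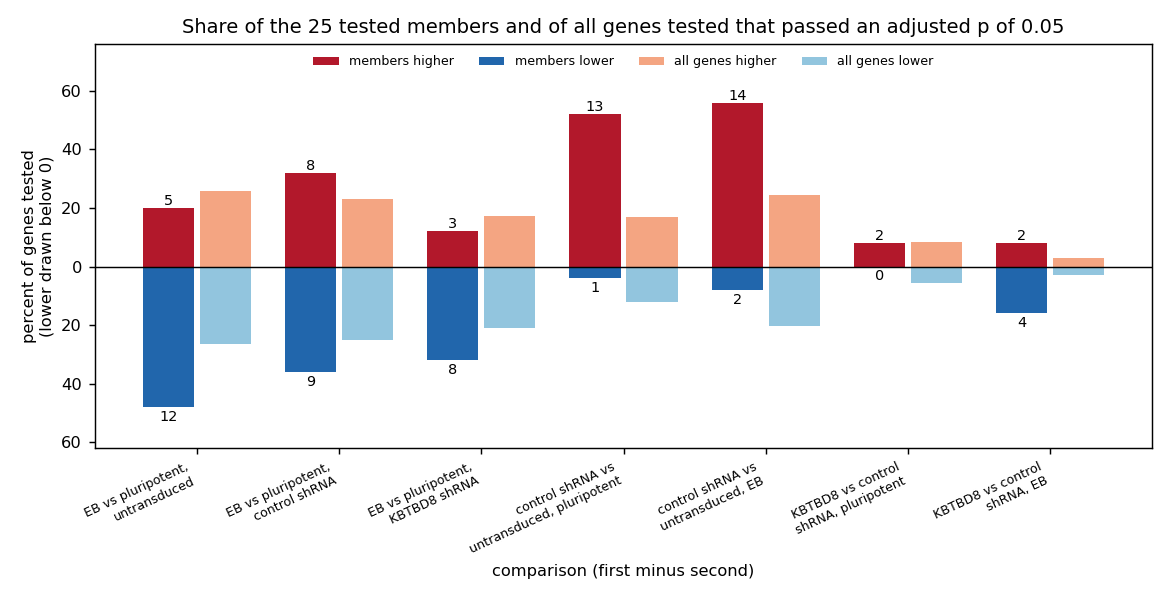
Share of the 25 tested members (dark bars, with their count) and of all 14209 genes tested (pale bars) that passed an adjusted p of 0.05, in percent, higher genes above 0 and lower genes below, for 7 comparisons of 2 groups on 16 arrays. The members higher with the control shRNA than in untransduced cells, 13 in pluripotent cells and 14 in embryoid bodies, stand furthest above the bars of all genes.

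Among the laminin-binding alpha subunits, ITGA6 and ITGA3 were lower in embryoid bodies under every treatment. ITGA6 measured 10.52, 10.24 and 10.17 on the untransduced pluripotent arrays and 8.99, 8.84 and 9.05 on the untransduced embryoid body arrays. With the control shRNA it measured 10.27, 10.16 and 10.25 in pluripotent cells and 8.95, 8.94 and 9.02 in embryoid bodies. For the KBTBD8 shRNA, arrays 1 and 3 gave 10.48 and 10.46 in pluripotent cells and 9.01 and 9.05 in embryoid bodies. The 2 states did not overlap under any treatment on these 16 arrays. The arrays numbered 2 gave 8.86 under the pluripotent label and 10.57 under the embryoid body label, each at the level of the other state. ITGA6 fell by 1.35 ± 0.09 in untransduced cells (adjusted p = 3.74e-09), a 2.55-fold difference, by 1.25 ± 0.09 with the control shRNA (adjusted p = 1.33e-08) and by 1.44 ± 0.11 with the KBTBD8 shRNA (adjusted p = 4.63e-08). With all 18 arrays the last difference was -0.39 (adjusted p = 0.837).

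ITGA3, the other widely expressed laminin receptor of epithelia, measured 7.40, 7.31 and 7.29 on the untransduced pluripotent arrays and 6.08, 6.46 and 6.32 on the untransduced embryoid body arrays. With the control shRNA it measured 7.40, 7.44 and 7.46 in pluripotent cells and 6.24, 6.35 and 6.37 in embryoid bodies. Under the KBTBD8 shRNA it measured 7.44 and 7.44 in pluripotent cells and 6.84 and 6.88 in embryoid bodies, with 6.48 and 7.60 on the arrays read apart. It thus fell in each treatment, by 1.05 ± 0.09 (adjusted p = 6.27e-08), by 1.11 ± 0.09 (adjusted p = 3.92e-08) and by 0.58 ± 0.11 (adjusted p = 0.000481), the last being -0.01 on 18 arrays (adjusted p = 0.993). In embryoid bodies ITGA3 was higher with the KBTBD8 shRNA than with the control shRNA, by 0.54 ± 0.10 (adjusted p = 0.00256), and these arrays did not overlap. With all 18 arrays that difference was 0.78 and did not pass (adjusted p = 0.0911). The difference between the 2 falls was 0.53 ± 0.14 (adjusted p = 0.0235). This last call was lost without control shRNA embryoid body array 1 and without each of the 4 KBTBD8 shRNA arrays of the fit, with values from 0.50 to 0.56, after centring the arrays on their median (0.52, adjusted p = 0.0628), and with all 18 arrays (1.10, adjusted p = 0.0679).

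ITGB1, the beta subunit that pairs with ITGA3, ITGA6 and many other alpha subunits, also fell. It measured 9.31, 9.30 and 9.06 in untransduced pluripotent cells and 8.74, 8.84 and 8.93 in untransduced embryoid bodies, a fall of 0.39 (adjusted p = 0.00196). The fall was 0.37 with the control shRNA (adjusted p = 0.00309) and 0.49 with the KBTBD8 shRNA (adjusted p = 0.00216), the latter -0.11 on 18 arrays (adjusted p = 0.885). ITGA7, a laminin receptor of muscle, measured 6.37 ± 0.09 in untransduced pluripotent cells and 6.06 ± 0.23 in untransduced embryoid bodies (SD, n = 3). Its fall of 0.31 (adjusted p = 0.0397) was lost without pluripotent array 1 or 2 or embryoid body array 1 or 3, with values from -0.30 to -0.19. Its fall of 0.40 with the control shRNA (adjusted p = 0.0101) was lost without embryoid body array 1 (-0.30, adjusted p = 0.0642). ITGB4, which with ITGA6 forms the laminin receptor of hemidesmosomes, fell by 0.33 (adjusted p = 0.0329) in untransduced cells and by 0.31 (adjusted p = 0.0457) with the control shRNA. The first call was lost without pluripotent array 2 or embryoid body array 1 or 2 (-0.30 to -0.21). The second was lost without pluripotent array 1 or 3 or any embryoid body array (-0.35 to -0.25). ITGB4 lay above the percentile of the filter on every array in 2 of the 6 groups.

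**Figure D2:**
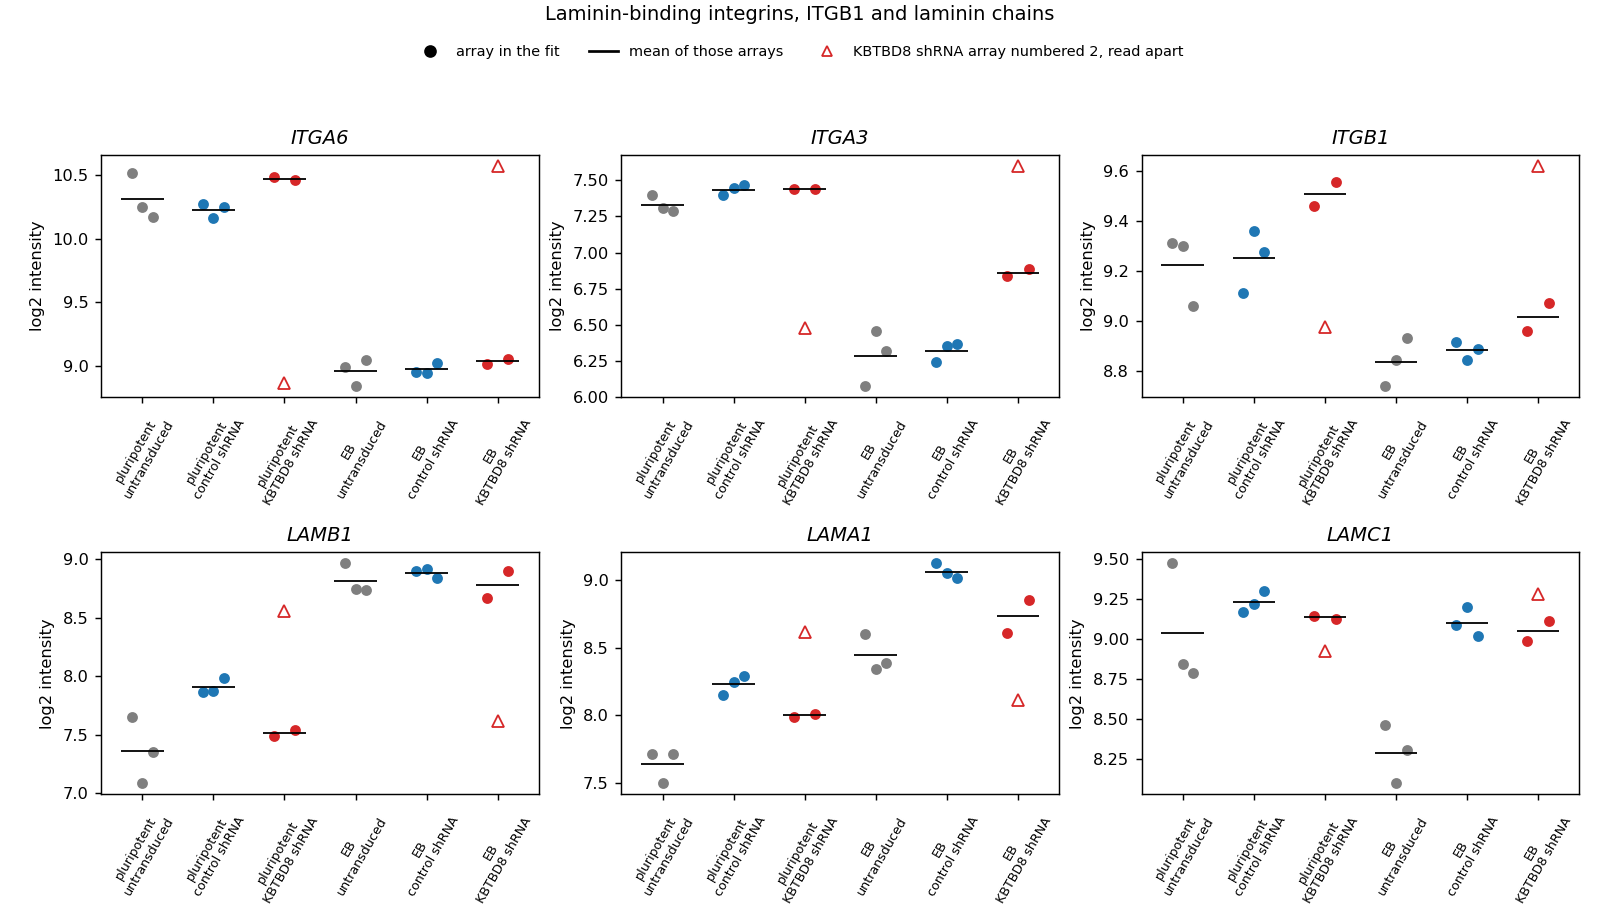
log2 intensity of 3 integrin subunits of laminin receptors (ITGA6, ITGA3, ITGB1) and 3 laminin chains (LAMB1, LAMA1, LAMC1) on each array, by group; filled points are arrays in the fit, lines their mean, and open triangles the KBTBD8 shRNA arrays numbered 2. ITGA6 lies between 10.16 and 10.52 on the pluripotent arrays of the fit and between 8.84 and 9.05 on the embryoid body arrays.

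The laminin chains moved in different directions. LAMA1 and LAMB1, the alpha and beta chains of the laminin of the early embryo and of Matrigel, rose in embryoid bodies under every treatment. LAMB1 measured 7.65, 7.09 and 7.36 on untransduced pluripotent arrays and 8.97, 8.75 and 8.74 on untransduced embryoid body arrays. With the control shRNA it measured 7.87, 7.88 and 7.98 in pluripotent cells and 8.90, 8.91 and 8.84 in embryoid bodies. Under the KBTBD8 shRNA it measured 7.49 and 7.54 in pluripotent cells and 8.67 and 8.90 in embryoid bodies. Every embryoid body array of the fit lay above every pluripotent array of it, and the arrays read apart gave 8.56 under the pluripotent label and 7.62 under the embryoid body label. LAMB1 rose by 1.45 ± 0.12 in untransduced cells (adjusted p = 3.58e-08), 0.98 ± 0.12 with the control shRNA (adjusted p = 4e-06) and 1.27 ± 0.14 with the KBTBD8 shRNA (adjusted p = 3.36e-06), the last being 0.53 on 18 arrays (adjusted p = 0.794).

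LAMA1 rose from a mean of 7.64 ± 0.12 to 8.44 ± 0.14 in untransduced cells and from 8.23 ± 0.07 to 9.06 ± 0.06 with the control shRNA (SD, n = 3). The differences were 0.80 ± 0.09 (adjusted p = 2.41e-06) and 0.83 (adjusted p = 1.96e-06), and with the KBTBD8 shRNA 0.73 (adjusted p = 9.63e-05; 0.32 on 18 arrays, adjusted p = 0.794). LAMC1, the gamma chain shared by most laminins, measured 9.47, 8.84 and 8.78 on untransduced pluripotent arrays and 8.46, 8.09 and 8.30 on untransduced embryoid body arrays, a fall of 0.75 ± 0.14 (adjusted p = 0.000356). With the control shRNA LAMC1 was 9.17, 9.21 and 9.30 in pluripotent cells and 9.08, 9.20 and 9.02 in embryoid bodies, so that these groups overlapped. LAMC3, another gamma chain, fell by 0.40 (adjusted p = 0.00213), 0.53 (adjusted p = 0.000235) and 0.51 (adjusted p = 0.00254). Its fall with the KBTBD8 shRNA was lost without embryoid body array 3, at -0.35 (adjusted p = 0.0521), and on 18 arrays, at -0.09 (adjusted p = 0.922).

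LAMA5, an alpha chain that human pluripotent cells make themselves, fell by 0.35 (adjusted p = 0.00383) in untransduced cells and differed by -0.11 under each shRNA. LAMA2, the alpha chain of muscle basement membranes, lay above the percentile of the filter on every array in 1 group only. It fell by 0.44 in untransduced cells (adjusted p = 0.00041) and by 0.39 with the KBTBD8 shRNA (adjusted p = 0.00796), the latter lost without pluripotent array 3 (-0.26, adjusted p = 0.122) or embryoid body array 3 (-0.33, adjusted p = 0.0668) and on 18 arrays (-0.11, adjusted p = 0.857). LAMB2, which takes the place of LAMB1 in mature basement membranes, differed by -0.13, -0.05 and -0.27 and passed under no treatment.

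The largest differences among the members were found in embryoid bodies that carried the control shRNA, where ITGA4, ITGA8, ITGA9 and LAMA4 were higher and ITGB5 was lower than in every other group. ITGA4, which pairs with ITGB1 and binds fibronectin and VCAM1, measured 7.88, 7.81 and 7.76 on these 3 arrays. It measured 5.88, 5.58 and 5.97 in untransduced embryoid bodies, and 5.31 and 5.38 in those with the KBTBD8 shRNA, with 5.05 on the array read apart. In pluripotent cells it measured 5.27, 5.07 and 5.25 without transduction, 5.15, 4.97 and 5.35 with the control shRNA, and 5.39 and 5.24 with the KBTBD8 shRNA, with 4.92 on the array read apart. The control shRNA embryoid bodies therefore lay over 1 log2 unit above every other array. ITGA4 rose on differentiation by 2.66 ± 0.11 with the control shRNA (adjusted p = 2.69e-11) and by 0.61 ± 0.11 in untransduced cells (adjusted p = 0.000236). Under the KBTBD8 shRNA its difference was 0.03 ± 0.14 (adjusted p = 0.885). In embryoid bodies ITGA4 was 4.01-fold higher with the control shRNA than without transduction (adjusted p = 1.56e-09). Its level under the KBTBD8 shRNA was lower than under the control shRNA, by -2.46 ± 0.13 (adjusted p = 4.86e-09). On 18 arrays this last value was -2.57 (adjusted p = 4.35e-08). ITGA4 lay above the percentile of the filter on every array of the untransduced and the control shRNA embryoid bodies, and under it in the KBTBD8 shRNA embryoid bodies and in pluripotent cells with either shRNA, so no fold is given against those low levels.

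ITGA9, the nearest relative of ITGA4 and a receptor for tenascin and osteopontin, was highest in the same group, though closer to pluripotent cells. It measured 6.85, 6.77 and 6.80 in control shRNA embryoid bodies, 5.42, 5.50 and 5.37 in untransduced ones, and 5.49 and 5.63 with the KBTBD8 shRNA, with 6.28 on the array read apart. In pluripotent cells it measured 6.00, 6.18 and 5.83 without transduction, 6.45, 6.50 and 6.63 with the control shRNA, and 6.32 and 6.33 with the KBTBD8 shRNA, with 5.82 on the array read apart. ITGA9 fell on differentiation by 0.57 ± 0.09 in untransduced cells (adjusted p = 5.37e-05) and by 0.76 ± 0.11 with the KBTBD8 shRNA (adjusted p = 4.23e-05; -0.36 on 18 arrays, adjusted p = 0.794), but rose by 0.28 ± 0.09 with the control shRNA (adjusted p = 0.0157). That rise was lost without pluripotent array 1 (0.24, adjusted p = 0.0604) or embryoid body array 1 (0.26, adjusted p = 0.0553) of the control shRNA, and after centring the arrays on their median (0.25, adjusted p = 0.0627). In embryoid bodies ITGA9 was 1.38 ± 0.09 higher with the control shRNA than without transduction (adjusted p = 8.51e-09), and with the KBTBD8 shRNA it differed from the control shRNA by -1.25 ± 0.10 (adjusted p = 6.41e-07; -1.01 on 18 arrays, adjusted p = 0.00394).

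ITGA8, an alpha subunit that pairs with ITGB1 and binds nephronectin, passed the filter through this single group. It measured 5.77, 5.87 and 5.80 in control shRNA embryoid bodies, 3.64, 3.52 and 3.42 in untransduced ones, and 4.45 and 4.31 with the KBTBD8 shRNA, with 3.68 on the array read apart. In pluripotent cells it measured 3.54, 3.77 and 3.72 without transduction, 4.36, 4.43 and 3.64 with the control shRNA, and 3.87 and 4.13 with the KBTBD8 shRNA, with 4.66 on the array read apart. All values outside the high group were under the percentile of the filter. ITGA8 rose by 1.67 ± 0.15 on differentiation with the control shRNA (adjusted p = 2.4e-07). It was 2.29 ± 0.15 higher with the control shRNA than in untransduced embryoid bodies (adjusted p = 1.45e-08), and with the KBTBD8 shRNA it differed from the control shRNA by -1.43 ± 0.17 (adjusted p = 5.27e-05; -1.67 on 18 arrays, adjusted p = 0.000528).

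LAMA4, the laminin alpha chain of blood vessels and peripheral nerves, also passed the filter through this group alone. It measured 6.81, 6.89 and 6.59 in control shRNA embryoid bodies, 4.41, 4.54 and 4.46 in untransduced ones, and 4.82 and 5.05 with the KBTBD8 shRNA, with 4.85 on the array read apart. The pluripotent arrays of the fit ranged from 4.24 to 5.04, and no array of another group reached the high one. LAMA4 rose by 1.96 ± 0.11 on differentiation with the control shRNA (adjusted p = 9.77e-10), while its differences were 0.18 (adjusted p = 0.207) without transduction and 0.01 (adjusted p = 0.976) with the KBTBD8 shRNA. In embryoid bodies it was 2.29 ± 0.11 higher with the control shRNA than without transduction (adjusted p = 4.02e-10), and with the KBTBD8 shRNA it differed from the control shRNA by -1.83 ± 0.13 (adjusted p = 1.3e-07; -1.85 on 18 arrays, adjusted p = 2.73e-07).

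ITGB5, which pairs with ITGAV as a receptor for vitronectin, was lowest where these 4 were highest. It measured 6.95, 7.05 and 7.06 in control shRNA embryoid bodies, 8.28, 8.27 and 8.25 in untransduced ones, and 7.94 and 8.28 with the KBTBD8 shRNA. In pluripotent cells it measured 8.31, 8.31 and 8.25 without transduction, 8.86, 8.94 and 9.15 with the control shRNA, and 9.14 and 9.26 with the KBTBD8 shRNA. The arrays read apart gave 7.90 under the pluripotent label and 9.35 under the embryoid body label. ITGB5 differed by -0.02 between the states in untransduced cells (adjusted p = 0.843) but fell by 1.96 ± 0.09 with the control shRNA (adjusted p = 1.09e-10) and by 1.09 ± 0.12 with the KBTBD8 shRNA (adjusted p = 1.72e-06), the latter -0.24 on 18 arrays (adjusted p = 0.876). The control shRNA gave a higher level than no transduction in pluripotent cells, by 0.69 ± 0.09 (adjusted p = 0.000143), and a lower one in embryoid bodies, by -1.25 ± 0.09 (adjusted p = 4.89e-08). In embryoid bodies the level with the KBTBD8 shRNA was 1.09 ± 0.11 above that with the control shRNA (adjusted p = 5.01e-06; 1.51 on 18 arrays, adjusted p = 0.0183).

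**Figure D3:**
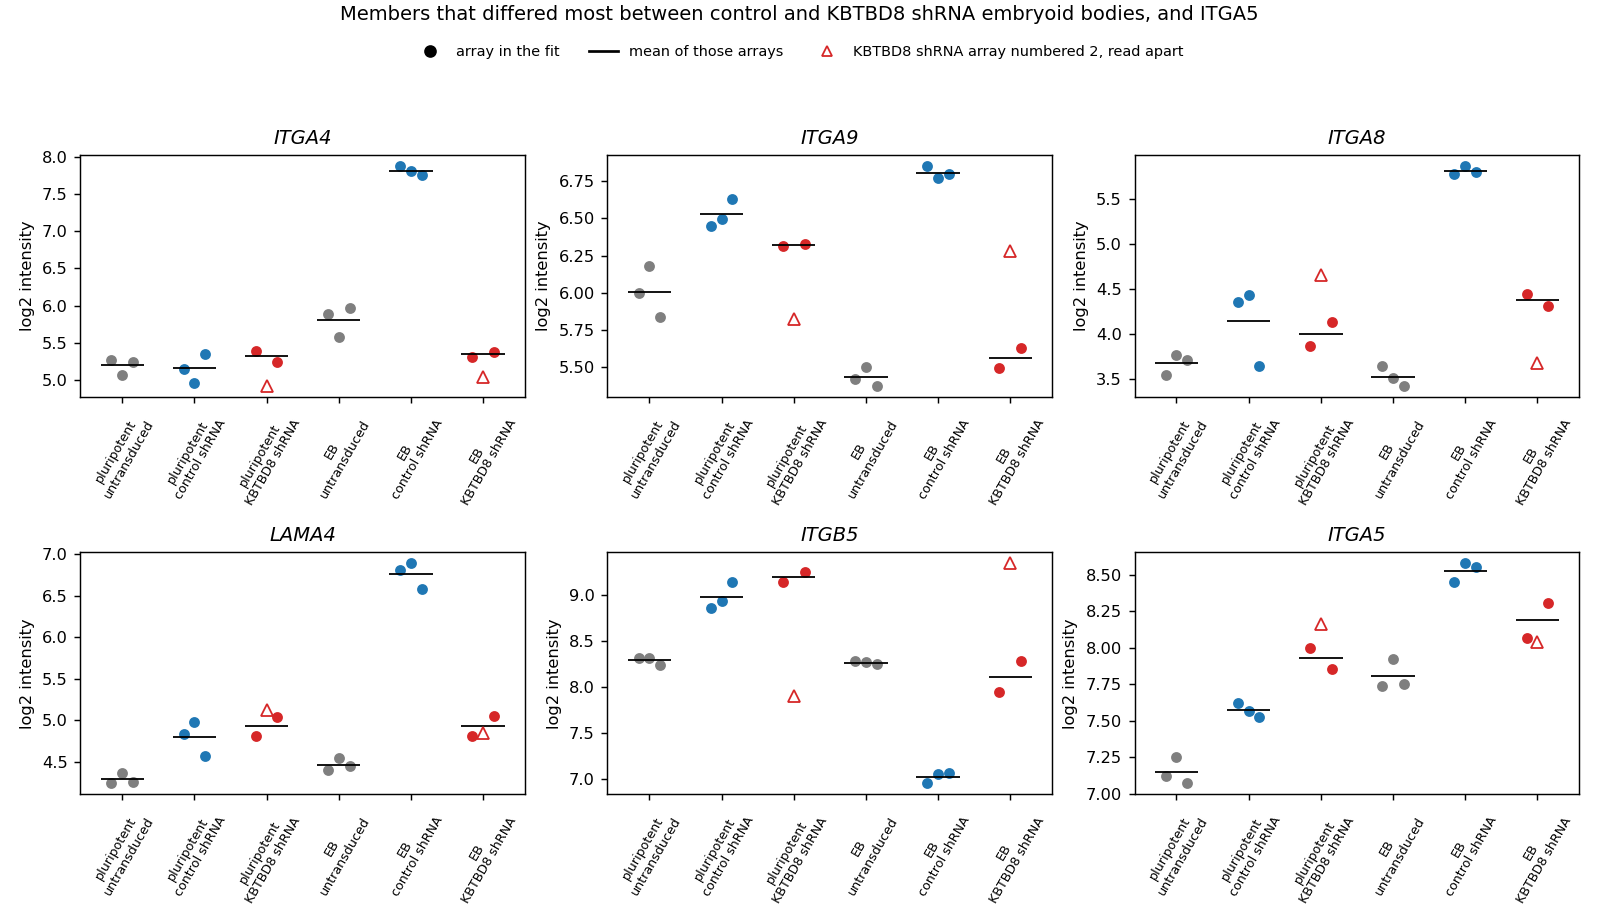
log2 intensity of ITGA4, ITGA9, ITGA8, LAMA4, ITGB5 and ITGA5 on each array, by group; filled points are arrays in the fit, lines their mean, and open triangles the KBTBD8 shRNA arrays numbered 2. In embryoid bodies with the control shRNA ITGA4 lies between 7.76 and 7.88 and ITGB5 between 6.95 and 7.06, each apart from the other groups.

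Markers of several cell types differed between the same groups. The 8 neural crest markers SOX10, FOXD3, TFAP2A, TFAP2B, SNAI2, PAX3, ETS1 and NGFR had a mean level of 9.03 to 9.13 on the control shRNA embryoid body arrays, 5.77 to 5.89 on the untransduced ones and 7.22 to 7.42 with the KBTBD8 shRNA. All 8 were higher with the control shRNA than without transduction, and all 8 were lower with the KBTBD8 shRNA than with the control shRNA. On all untransduced embryoid body arrays 3 of the 8 lay under the 40th percentile, and with the KBTBD8 shRNA 1 did. The 5 mesenchyme markers had a mean level of 6.66 to 6.74 with the control shRNA, 5.68 to 5.72 without transduction and 6.20 to 6.36 under the KBTBD8 shRNA. All 5 were higher with the control shRNA than without transduction, and 2 were lower with the KBTBD8 shRNA than with the control. The 7 endoderm and yolk sac markers had a mean level of 6.55 to 6.64 under the control shRNA, up to 5.07 without transduction and 5.35 to 5.57 with the KBTBD8 shRNA. Of these 7, 4 were higher with the control shRNA than without transduction and 3 were lower with the KBTBD8 shRNA than with the control. AFP, TTR and APOA2 made up most of this, with differences of 3.71, 2.94 and 3.26 and of -2.79, -2.60 and -2.67, while SOX17, FOXA2, GATA4 and GATA6 differed by 0.21 to 0.33 and by -0.01 to 0.10. The part of these cells in the levels of ITGA4, ITGA8, ITGA9, LAMA4 and ITGB5 was not tested. In such bulk samples fewer cells of a type and less RNA per cell cannot be told apart.

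Endothelial and blood cells, which are known to express ITGA4, ITGA9 and LAMA4, had few detected markers. PECAM1, CDH5 and TIE1 were not above the filter, and the 6 endothelial markers had a mean level of 5.10 to 5.31 in untransduced, 5.68 to 5.75 in control shRNA and 5.65 to 5.81 in KBTBD8 shRNA embryoid bodies. KDR, which is also found outside endothelium, was the 1 of the 3 tested that passed, with means of 4.94, 7.17 and 7.14 in these groups. The part of endothelial cells in the control shRNA levels was not tested. Of 9 blood and platelet markers, 5 were not above the filter, PTPRC among them, and the mean level in embryoid bodies was 4.86 to 4.95 without transduction, 4.81 to 4.96 under the control shRNA and under 5 with the KBTBD8 shRNA.

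Promoter sequence is shown for ITGA8, which was highest in embryoid bodies with the control shRNA, and for ITGB5, which was lowest there. Each line gives the 250 bases before the start of transcription, 5′ to 3′ on the strand of the gene, from RefSeq (GRCh38.p14). Capitals mark the letters GCCNNNGGC, a palindrome bound by AP-2 factors such as TFAP2A. The ITGA8 window is chr10:15719923-15720172 and that of the most upstream ITGB5 start is chr3:124901419-124901668, both on the minus strand and outside the transcribed region.
ITGA8: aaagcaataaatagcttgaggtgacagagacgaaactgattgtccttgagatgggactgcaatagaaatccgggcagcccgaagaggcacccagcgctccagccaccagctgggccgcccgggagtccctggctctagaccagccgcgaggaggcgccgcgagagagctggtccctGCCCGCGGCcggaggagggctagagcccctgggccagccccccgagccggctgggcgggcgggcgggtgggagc
ITGB5: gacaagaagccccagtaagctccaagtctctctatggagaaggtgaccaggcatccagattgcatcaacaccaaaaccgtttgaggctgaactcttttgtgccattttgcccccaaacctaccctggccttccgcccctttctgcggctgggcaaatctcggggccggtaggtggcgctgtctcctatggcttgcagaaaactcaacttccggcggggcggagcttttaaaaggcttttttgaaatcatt
GCCNNNGGC was found 1 time in the ITGA8 window and 0 times in this ITGB5 window, and is present in 19.8% of 35116 windows of this length. CAGGTG, the E-box bound by SNAI factors, was searched on both strands, was found in neither printed window and is present in 17.5% of all windows. Neither set of letters was found in the windows of ITGA4 and LAMA4, and matches of the 2 motifs did not overlap. Of the other ITGB5 windows, 1 held GCCNNNGGC 2 times, and 1 held GCCNNNGGC and CAGGTG 1 time each. RefSeq's table held windows for 24 of the 34 members, and of their 31 windows 8 held GCCNNNGGC and 7 held CAGGTG.

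The remaining receptors that recognise the RGD sequence of fibronectin and vitronectin changed by smaller amounts. ITGA5, the main fibronectin receptor with ITGB1, measured 7.12, 7.25 and 7.07 on untransduced pluripotent arrays and 7.74, 7.92 and 7.75 on untransduced embryoid body arrays. With the control shRNA it measured 7.62, 7.57 and 7.53 in pluripotent cells and 8.45, 8.58 and 8.55 in embryoid bodies. It rose on differentiation by 0.66 ± 0.09 without transduction (adjusted p = 1.03e-05) and by 0.95 ± 0.09 with the control shRNA (adjusted p = 2.19e-07), and differed by 0.26 with the KBTBD8 shRNA (adjusted p = 0.0686). The control shRNA group was the higher in both states, by 0.42 ± 0.09 in pluripotent cells (adjusted p = 0.00243) and 0.72 ± 0.09 in embryoid bodies (adjusted p = 9.64e-06). Under the KBTBD8 shRNA ITGA5 was 0.36 ± 0.10 above its level under the control shRNA in pluripotent cells (adjusted p = 0.0243). That call was lost without control shRNA array 2 or 3 or KBTBD8 shRNA array 1 or 3, with values from 0.29 to 0.43. It was also lost with the compared groups alone (0.36, adjusted p = 0.0522). On 18 arrays it passed (0.43, adjusted p = 0.021), but there the added array labelled pluripotent gave 8.16. The KBTBD8 shRNA arrays of the fit had a mean of 7.93 in pluripotent cells and 8.19 in embryoid bodies. The added array thus lay nearer to the other state, and the pass on 18 arrays does not strengthen the call. In embryoid bodies ITGA5 differed by -0.34 between the KBTBD8 and the control shRNA (adjusted p = 0.0569).

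ITGAV, the alpha subunit that pairs with ITGB5 and ITGB8, measured 8.71 ± 0.10 in untransduced embryoid bodies and 8.22 ± 0.07 in those with the control shRNA (SD, n = 3), a difference of -0.49 ± 0.11 (adjusted p = 0.00263). ITGAV and ITGB5 were thus both lower with the control shRNA in embryoid bodies. ITGAV fell on differentiation by 0.30 with the control shRNA (adjusted p = 0.0413) and by 0.42 with the KBTBD8 shRNA (adjusted p = 0.0258), calls that were each lost when 1 array was left out. For the control shRNA these were pluripotent arrays 2 and 3 and every embryoid body array (-0.33 to -0.26), and for the KBTBD8 shRNA each of the 4 arrays of the fit (-0.45 to -0.39). On 18 arrays the latter was -0.04 (adjusted p = 0.971). ITGB8, which with ITGAV is known to release active TGF-beta, rose by 0.61 (adjusted p = 0.00443) in untransduced cells and differed by 0.02 with the control shRNA. ITGA2B, the alpha subunit of the platelet fibrinogen receptor, was 0.51 ± 0.09 higher in embryoid bodies with the control shRNA than without transduction (adjusted p = 0.000291). Its rise with the KBTBD8 shRNA was 0.47 (adjusted p = 0.00292; 0.26 on 18 arrays, adjusted p = 0.794), and that with the control shRNA was 0.29 (adjusted p = 0.0137) and lost without pluripotent array 3 (0.23, adjusted p = 0.0722) or embryoid body array 2 (0.22, adjusted p = 0.0763).

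Of the collagen receptors ITGA2 and ITGA11 were tested. ITGA2 measured 6.17, 6.57 and 6.72 in pluripotent cells with the control shRNA and 5.32, 5.39 and 5.52 in embryoid bodies with it, without overlap, and fell by 1.08 ± 0.16 (adjusted p = 4.97e-05). In untransduced cells it measured 6.53, 5.84 and 6.18 against 5.53, 5.82 and 5.79, and its fall of 0.47 (adjusted p = 0.0253) was lost without pluripotent array 1 or 3 or embryoid body array 1 (-0.47 to -0.30). ITGA11 was 0.41 higher in embryoid bodies with the control shRNA than without transduction (adjusted p = 0.00226). Of the leukocyte subunits, ITGAE passed in none of the 7 comparisons of 2 groups, and its group means ran from 5.54 to 5.99. ITGAM fell by 0.63 (adjusted p = 0.000599) on differentiation without transduction, from 5.57 ± 0.19 to 4.94 ± 0.07 (SD, n = 3). It passed the filter only through the untransduced pluripotent arrays, where it was highest, so the filter favoured a fall from that group.

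The comparison of the control shRNA with untransduced cells covers the lentivirus, its control hairpin and anything else that differed between these cultures or arrays. These cannot be told apart. In pluripotent cells 14 of 25 members differed, 13 higher and 1 lower with the control shRNA, beside 29.1% of all genes tested (17% higher and 12.1% lower). In embryoid bodies 16 members differed, 14 higher and 2 lower, beside 44.8% of all genes (24.6% higher and 20.2% lower). In both states the higher ones include ITGA8 and LAMA4, which passed the filter only through the control shRNA embryoid bodies. The filter thus favoured their calls in embryoid bodies, and on every pluripotent array both lay under its percentile. The pluripotent calls of ITGA7, ITGA8, ITGB4, ITGB8, LAMA2 and LAMC3 were each lost after centring the arrays on their median. Each was also lost when 1 array was left out, which held for 2 (ITGA7) to 5 (LAMC3) of the arrays. The members' median difference was 0.27 and 0.37 in the 2 states, and that of all genes 0.04 in both. The 13 higher members in pluripotent cells included LAMA1, by 0.59 (adjusted p = 0.000401), LAMB1, by 0.55 (adjusted p = 0.00307), and LAMB2, by 0.40 (adjusted p = 0.00894; 0.30 and adjusted p = 0.0647 after centring the arrays on their median), and the lower one was ITGAM, by -0.47 (adjusted p = 0.0127), which passed the filter only through the untransduced group and was lost without untransduced array 1 or control shRNA array 3 (both -0.39). In embryoid bodies 6 of the 8 laminin chains tested were higher with the control shRNA, among them LAMC1 by 0.81 ± 0.14 (adjusted p = 0.000298), LAMA2 by 0.64 (adjusted p = 2.63e-05), LAMA1 by 0.62 (adjusted p = 7.7e-05), LAMB2 by 0.48 (adjusted p = 0.0015) and LAMA5 by 0.45 (adjusted p = 0.000868).

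These counts depended on how arrays were scaled. Centring each array on its median moved the median of all genes by -0.10 in pluripotent cells and -0.17 in embryoid bodies. It changed the share of called genes that were higher from 58.4% to 31.6% in pluripotent cells and from 54.8% to 27.4% in embryoid bodies. Quantile normalization gave shares of 48.1% and 44.8%. After centring, 7 members differed in pluripotent cells, 6 higher and 1 lower, and 15 in embryoid bodies, 12 higher and 3 lower. With quantile normalization 9 members differed in pluripotent cells, 8 of them higher, and 15 in embryoid bodies, 12 higher.

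Between the KBTBD8 and the control shRNA 6 members differed in embryoid bodies, beside 5.8% of all genes tested (2.84% higher and 2.96% lower). ITGA4, LAMA4, ITGA8 and ITGA9 were lower, and ITGB5 and ITGA3 were higher. LAMA4 and ITGA8 passed the filter only through the control shRNA embryoid bodies, where they were highest. The filter thus favoured their calls and raised this count. The count was also 6 with all 18 arrays under their labels, 2 higher and 4 lower, but not of the same members. ITGA3 no longer passed there, and another member took its place. In pluripotent cells 2 members differed, beside 14% of all genes (8.43% higher and 5.58% lower), and both were higher with the KBTBD8 shRNA, namely ITGA5 and ITGAV. Leaving out any 1 of the 5 arrays left 0 or 1 member. ITGAV measured 8.91 and 8.94 against 8.39, 8.58 and 8.57, a difference of 0.41 ± 0.13 (adjusted p = 0.0404) that was lost without any of the 5 arrays (0.35 to 0.45) and on 18 arrays (0.22, adjusted p = 0.558). LAMB1 differed by -0.39 in these cells (adjusted p = 0.0565) and passed under other settings, for example with quantile normalization (-0.41, adjusted p = 0.0301), but not on 18 arrays (-0.04, adjusted p = 0.958). Both comparisons use the same control shRNA arrays as those with untransduced cells, so the high control value of ITGA4 enters both. Set side by side in embryoid bodies, the mean of ITGA4 was 5.81 without transduction, 7.81 with the control shRNA and 5.35 with the KBTBD8 shRNA. In the same order, ITGB5 was 8.27, 7.02 and 8.11, LAMA4 was 4.47, 6.76 and 4.93, ITGA9 was 5.43, 6.81 and 5.56, and ITGA8 was 3.53, 5.81 and 4.38. For these 5 members, named for their large differences, the KBTBD8 shRNA group lay nearer to the untransduced group than to the control shRNA group. Of the other members called between control shRNA and untransduced embryoid bodies, only LAMA1 and ITGAV did so. The rest lay nearer to the control shRNA group. In the same order LAMA2 was 4.84, 5.48 and 5.41, LAMA5 was 6.76, 7.21 and 7.37, and ITGA2B was 5.77, 6.28 and 6.38.

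Whether the difference between the states varied with treatment was tested as a difference of differences. Between control shRNA and untransduced cells 9 members differed, 7 higher and 2 lower, beside 16.9% of all genes (8.26% higher and 8.61% lower). The largest were ITGA4, at 2.04 ± 0.16 (adjusted p = 2.39e-07), ITGB5, at -1.94 ± 0.13 (adjusted p = 6e-08), ITGA8, at 1.82 ± 0.22 (adjusted p = 2.54e-05), and LAMA4, at 1.79 ± 0.16 (adjusted p = 1.14e-06). ITGA8 and LAMA4 passed the filter only through the control shRNA embryoid bodies, so the filter favoured their calls here and in the next comparison. Between KBTBD8 and control shRNA 7 members differed, 2 higher and 5 lower, beside 9.87% of all genes (3.74% higher and 6.12% lower). ITGA4 differed by -2.63 ± 0.18 (adjusted p = 2.79e-07), LAMA4 by -1.96 ± 0.18 (adjusted p = 6.83e-06), ITGA9 by -1.04 ± 0.14 (adjusted p = 0.000216) and ITGB5 by 0.87 ± 0.15 (adjusted p = 0.00146). With all 18 arrays ITGA4 (-2.59, adjusted p = 8.21e-06), LAMA4 (-2.05, adjusted p = 1.4e-05) and ITGB5 (1.72, adjusted p = 0.0478) still passed, and ITGA9 did not (-0.64, adjusted p = 0.163).

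**Figure D4:**
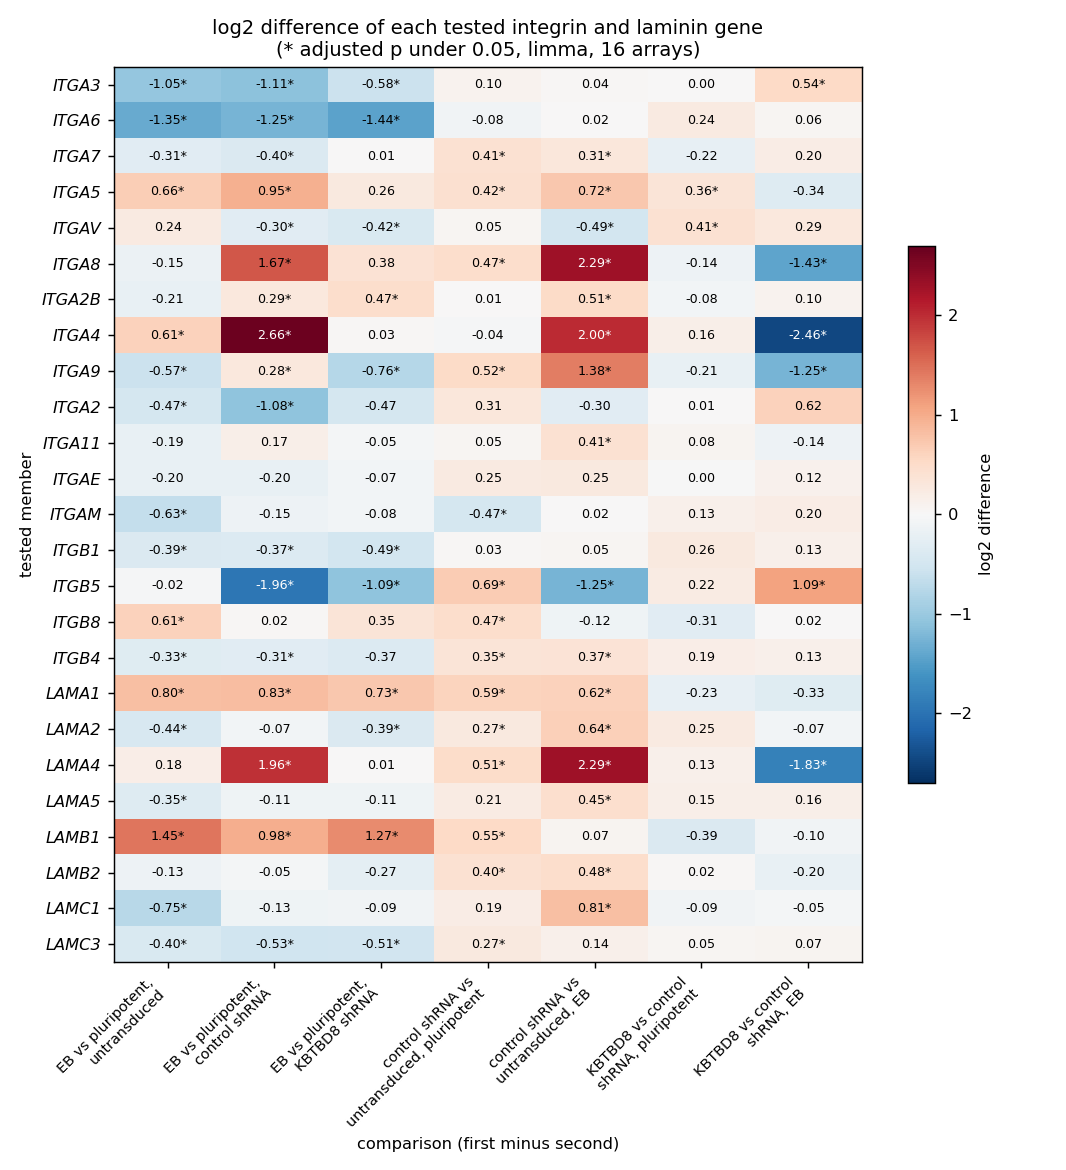
log2 difference of each of the 25 tested members (rows) in 7 comparisons of 2 groups (columns), with colour for size and sign and an asterisk where the adjusted p was under 0.05 on 16 arrays. ITGA6 is blue in all 3 comparisons of embryoid bodies with pluripotent cells (-1.35, -1.25 and -1.44), while ITGA4 is red with the control shRNA (2.66) and near 0 with the KBTBD8 shRNA (0.03).

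Genes that work with integrins were read from 3 lists. Of 30 adhesion adaptors, which tie integrins to actin, 29 were tested. In untransduced cells 3 rose and 15 fell in embryoid bodies, beside 25.8% and 26.3% of all genes tested. Under the control shRNA 4 rose and 13 fell, beside 23.1% and 25.2%, and with the KBTBD8 shRNA 3 rose and 12 fell, beside 17.3% and 21.1%. The median differences of the list were -0.25, -0.20 and -0.20. FERMT1, a kindlin of epithelia, differed by -1.62, -2.03 and -1.68 in these 3 comparisons. RSU1, a partner of the complex of ILK, differed by -1.11, -1.22 and -1.10, and vinculin (VCL), which reinforces talin, by -1.07, -1.05 and -0.86. In embryoid bodies 12 adaptors were higher and 3 lower with the control shRNA than without transduction, beside 24.6% and 20.2% of all genes, with TNS2, a tensin, at 1.51, and after centring on the median 7 were higher and 4 lower. Against the control shRNA, embryoid bodies with the KBTBD8 shRNA differed by -0.91 in TNS2, 0.85 in FERMT1 and 0.72 in FERMT2.

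Of 31 basement membrane and matrix ligands 28 were tested. In untransduced cells 10 rose and 11 fell in embryoid bodies, with the control shRNA 7 rose and 10 fell, and with the KBTBD8 shRNA 8 rose and 7 fell. Beside these counts stand the same shares of all genes as for the adaptors. The median differences were 0.002, -0.01 and 0.10. SPP1, or osteopontin, a ligand of ITGA4 and ITGA9, differed by -2.43 without transduction and -1.39 with the control shRNA, and was 2.02 higher with the control shRNA than without transduction in embryoid bodies. MFGE8, which carries an RGD sequence bound by ITGAV receptors, differed by -2.39, -1.41 and -1.10 without transduction, with the control and with the KBTBD8 shRNA. The thrombospondins THBS1 and THBS2 fell as well, with differences of -1.63, -1.78 and -1.74 for THBS1 and of -1.65, -1.52 and -1.66 for THBS2 in this order. FRAS1, a basement membrane protein of epithelia, fell by 1.99 in untransduced cells. Fibrillin FBN1, which also carries an RGD sequence, rose by 2.19 there. Tenascin C (TNC), a ligand of ITGA9, rose under every treatment, by 1.80, 1.26 and 2.47, and so did VCAM1, a ligand of ITGA4, by 0.45, 1.26 and 1.28. In embryoid bodies 17 ligands were higher and 3 lower with the control shRNA than without transduction, beside 24.6% and 20.2% of all genes. After centring 11 were higher and 4 lower. In pluripotent cells fibronectin (FN1) was 1.76 higher with the control shRNA than without transduction and differed by -0.66 with the KBTBD8 shRNA against the control shRNA.

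Of 25 other laminin receptors and membrane partners of integrins 21 were tested. In embryoid bodies 4 rose and 9 fell without transduction, 4 rose and 8 fell with the control shRNA, and 6 rose and 6 fell with the KBTBD8 shRNA. The shares of all genes beside these are those given for the adaptors. The median differences were 0.03, -0.09 and 0.12. CD9, a tetraspanin that binds integrins and marks pluripotent cells, differed by -4.28, -1.96 and -1.83 in this order. Caveolin (CAV1) differed by -1.52, -2.03 and -2.04, and the syndecan SDC3 rose by 0.96 and 0.88 in the first and second of these comparisons. Between control shRNA and untransduced embryoid bodies 7 were higher and 5 lower, beside 24.6% and 20.2% of all genes. The laminin receptor BCAM stood at 1.05 and CD9 at 2.31, and after centring 3 were higher and 6 lower. With all 18 arrays 0 genes of each of these 3 lists passed for differentiation with the KBTBD8 shRNA. Shares of all genes on 18 arrays or after centring were not counted, so those counts cannot be set against them.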

How the data were processed

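Transcripts were measured on 18 Affymetrix Human Gene 1.0 ST arrays. Per the submitters' processing notes the authors used GCRMA, and the deposited table holds log2 intensities. The log base and whether all arrays were normalized together are not given in the sources used here, and log2 was taken from the method and the range of the values. Of 33297 probe sets 19460 carried 1 symbol and were used. The probe set of highest mean stood for a gene, and no member had more than 1. Symbols were brought to current names with RefSeq (GRCh38.p14), where 28 genes had no entry.

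limma 3.58.1 in R 4.3.3 fitted 6 group means to 16 arrays (10 residual degrees of freedom). Benjamini-Hochberg adjustment ran over 14209 genes, with calls at 0.05. The script was checked on simulated data. After ± stands the standard error for a difference, the standard deviation for a mean. The number of arrays limits the precision. Array values are given for ITGA4, ITGB5, members called with a log2 difference of at least 1 in size, and others described. From the 3 lists of partners genes among the 4 called with the largest differences in a comparison are named, some of them with values in other comparisons. The members and all lists were chosen with earlier results of these data known. Alternatives were the 18 arrays, other filters and scalings, an intensity trend, the compared groups alone, a replicate block and leaving out each array. Promoter windows came from RefSeq. Plots used Python 3.11.15, pandas 2.3.3 and matplotlib 3.10.9.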

Additional observations from a re-analysis of the deposited data

Results flagged for a closer look

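For 16 results the change on differentiation differed between treatments by limma's test of the difference itself on 16 arrays, with adjusted p over all genes tested. Between control shRNA and untransduced cells these were ITGA4 (2.04, adjusted p = 2.39e-07), ITGB5 (-1.94, 6e-08), ITGA8 (1.82, 2.54e-05), LAMA4 (1.79, 1.14e-06), ITGA9 (0.854, 0.000185), LAMC1 (0.621, 0.0456), ITGAV (-0.538, 0.0302), ITGA2B (0.499, 0.0123) and LAMA2 (0.371, 0.0462). Of these, the differences of LAMC1, LAMA2 and ITGAV no longer passed without any of 9, 9 and 8 arrays. Between KBTBD8 and control shRNA they were ITGA4 (-2.63, 2.79e-07), LAMA4 (-1.96, 6.83e-06), ITGA8 (-1.29, 0.00326), ITGA9 (-1.04, 0.000216), ITGB5 (0.875, 0.00146), ITGA5 (-0.694, 0.0046) and ITGA3 (0.534, 0.0235). ITGA8 and LAMA4 passed the filter only through the control shRNA embryoid bodies, so the filter favoured their results. ITGA9 went in opposite directions on differentiation, -0.57 without transduction and 0.28 with the control shRNA. Groups held 2 or 3 arrays, so none was searched for a single array far from the others.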

How the results depend on the processing

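No result changed its sign past the threshold under any alternative run. Of 225 member differences 99 passed, 72 of them under every alternative on 16 arrays and 53 also on 18 arrays, where 43 calls were lost and 1 was gained. Of 189 counts under 9 alternatives 172 stayed within 1.5 times. With all 18 arrays the number of members called was 0 for differentiation with the KBTBD8 shRNA, 4 for control shRNA against untransduced in pluripotent cells, 1 for KBTBD8 against control shRNA in pluripotent cells and 4 for the difference of differentiation between control shRNA and untransduced. Adaptors then numbered 0 for differentiation with the KBTBD8 shRNA and 9 for control shRNA against untransduced embryoid bodies, matrix ligands 0 and 13, with 11 for differentiation with the control shRNA, and membrane partners 0 for differentiation with the KBTBD8 shRNA. The alternative itself places in each KBTBD8 shRNA group the array that stood apart, and the share of all genes it calls was not counted. For control shRNA against untransduced in pluripotent cells 9 members were called with the compared groups alone, 8 with the stricter filter, 9 with quantile normalization and 7 after centring. In embryoid bodies the stricter filter gave 10, as fewer members were tested. For KBTBD8 against control shRNA in pluripotent cells 1 was called without a filter and 1 after centring. The causes were not tested. Without the filter, LAMB3 was higher with the control shRNA than without transduction in both states (0.60 and 0.59), and ITGAX, ITGB3 and ITGB7 in embryoid bodies, while the other 5 members not tested before passed in no comparison.

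Leaving out each array in turn gave 14 to 19, 13 to 16 and 9 to 12 members for differentiation without transduction, with the control and with the KBTBD8 shRNA. It gave 10 to 11 and 14 to 16 for control shRNA against untransduced in pluripotent cells and embryoid bodies, 0 to 1 and 6 to 7 for KBTBD8 against control shRNA, and 6 to 11 and 6 to 7 for the 2 differences of differentiation. For the 3 differentiation comparisons and control shRNA against untransduced embryoid bodies, in this order, adaptors ranged over 17 to 20, 13 to 17, 10 to 12 and 11 to 14, matrix ligands over 19 to 20, 15 to 16, 12 to 15 and 16 to 20, and membrane partners over 11 to 14, 11 to 12, 7 to 11 and 10 to 11. Same-numbered arrays did not deviate together in all pairs of any comparison with 3 pairs (correlations from -0.377 to 0.0493), so the numbers are not taken to pair the samples there. In comparisons with KBTBD8 shRNA groups 2 pairs remain, with 0.317 and 0.317 for differentiation, 0.384 and 0.359 against the control shRNA in pluripotent cells, and -0.131 and 0.0109 in embryoid bodies. The 2 values for differentiation are equal by construction, as both groups hold 2 arrays, and count as 1. So few pairs cannot decide whether the numbers pair these samples, and the main fit leaves pairing out. The replicate block gave 18, 16 and 11 members for differentiation and moved no count of members beyond 1.5 times. Against the control shRNA in pluripotent cells it ended the call of ITGAV (0.38, adjusted p = 0.0759) and called LAMB1 (-0.44, adjusted p = 0.0436).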

Other observations

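Neural plate markers (PAX6, SIX3, LHX2, SOX1 and OTX2) had a mean level in embryoid bodies of 9.32 to 9.39 on untransduced arrays, 7.97 to 8.08 on control shRNA arrays and 8.74 to 8.83 on KBTBD8 shRNA arrays. Of the 5, 4 were lower with the control shRNA than without transduction by limma's adjusted p. With the KBTBD8 shRNA SIX3 and LHX2 were higher than with the control shRNA, by 3.23 and 1.62, and PAX6 was lower, by -0.55. The 8 pluripotent markers had a mean level of 8.13 to 8.28 in untransduced embryoid bodies, 9.28 to 9.30 under the control shRNA and 9.57 to 9.68 under the KBTBD8 shRNA, against 9.92 to 10.44 on all pluripotent arrays of the fit. Trophoblast markers, 3 of 5 tested, had a mean level of 4.94 to 5.20, 5.70 to 5.77 and 5.91 to 6.25 in the same 3 groups of embryoid bodies. The part of these cells in the integrin and laminin levels was not tested.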
